A study of Homo sapiens with 12 samples.

Results

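The effect of a short hairpin RNA (shRNA) against MSI2, given together with an shRNA against MSI1, was read from RNA sequencing of MIA PaCa-2 cells, a human pancreatic cancer line. Double knockdown cells, which received both shRNAs, gave 3 libraries and were set against 3 libraries of Msi1 knockdown cells. The comparison thus used 6 of the 12 libraries of the study, and the Msi1 shRNA was common to both sides. The other 6 libraries, 3 of Msi2 knockdown cells and 3 of cells given a scrambled control shRNA, served for the same Msi2 shRNA without the Msi1 shRNA. The groups followed the sample titles. Lentiviruses delivered the shRNAs, the Msi1 virus marked with green fluorescent protein (GFP) and the Msi2 virus with Tomato Red, and cells were collected by their fluorescence after 72 h of infection. Double knockdown cells were those positive for both markers and Msi1 knockdown cells those positive for GFP. The double knockdown cells therefore differed from the Msi1 knockdown cells by the Msi2 shRNA, by the virus that carried it and by a sorting gate, and these cannot be told apart. The sources used here do not give the marker of the control virus, or whether the Msi1 knockdown cells received a second, scrambled virus. The 15021 of 24528 genes that passed a filter on low counts were tested.

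MSI1 and MSI2 encode Musashi-1 and Musashi-2, closely related proteins that bind short sites in target mRNAs and change how well these are translated and how long they last. They are best known from stem and progenitor cells, in the nervous system for Musashi-1 and in blood for Musashi-2, and both have been studied as regulators of tumour growth in pancreatic cancer. Since they can bind similar sites, adding the Msi2 shRNA to the Msi1 shRNA asks what a further loss of Musashi-2 does when Musashi-1 is low.

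Each library was an estimate of counts per gene. Totals, in units of 1e+06 counts, were 56.1, 44.7 and 39.9 in the double knockdown libraries and 36.04, 38.9 and 26.8 in the Msi1 knockdown libraries. Levels are given as counts per 1e+06 of the scaled total (CPM). Replicates of a group were never alike within sampling noise: their counts gave a chi-square of 5.49 to 9.61 per degree of freedom in the double knockdown and 4.15 to 24.1 in the Msi1 knockdown. No label says that replicates were separate cultures, and the spread behind the p-values may therefore be technical. Replicates also differed among themselves along a shared direction, the first component of the within-group deviations, which held 54.1% of the within-group variance and is called the library trend here. Its gene weights correlated with transcript length, with a Spearman rho of 0.41 across genes. The double knockdown libraries scored -1.54, -1.32 and -1.06 on it, against 0.091, 1.37 and 1.38 in the Msi1 knockdown libraries, with no overlap. Msi1 knockdown replicates 2 and 3 stood apart from replicate 1. The mitochondrially encoded genes took 5.74, 5.27 and 6.05% of counts in the double knockdown libraries and 6.39, 7.85 and 6.72% in the Msi1 knockdown libraries. For trend score, mitochondrial share and total count the groups did not overlap, and the exact permutation test over 20 splits gave p = 0.1 for each, the smallest it can give (adjusted p = 0.125 over 5 library measures). Each group of genes below is therefore given a second time from a fit that held the library trend as a covariate, called the trend-adjusted fit. Where it matters, values without Msi1 knockdown replicates 2 and 3 are added, an alternative chosen after seeing the data. It leaves 1 Msi1 knockdown library, which is assumed to vary like the libraries of the other groups, so its calls rest on the spread within those groups.

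**Figure D1:**
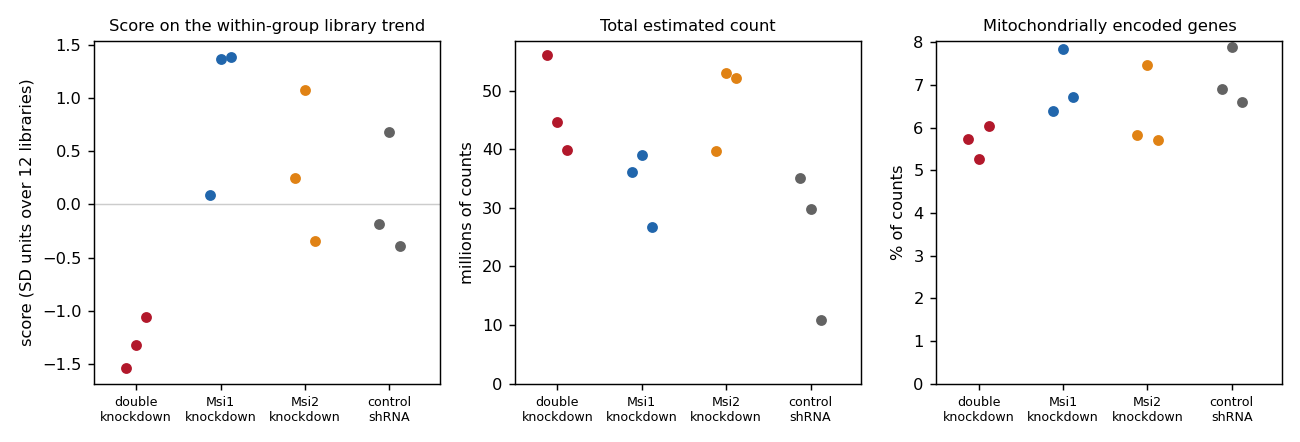
Score on the within-group library trend (SD units over the 12 libraries), total estimated count (in units of 1e+06) and share of counts from mitochondrially encoded genes (%), 1 point per library, in the double knockdown, Msi1 knockdown, Msi2 knockdown and control shRNA groups. The 3 double knockdown libraries lie at -1.06 or lower on the trend and the 3 Msi1 knockdown libraries at 0.091 or higher.

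MSI2 mRNA, the target of the added shRNA, was at 11.1, 12.2 and 12.02 CPM in the double knockdown libraries, against 52.1, 56.5 and 53.4 CPM in the Msi1 knockdown libraries. Every double knockdown library was below every Msi1 knockdown library, a log2 change of -2.20 ± 0.09 (SE; edgeR adjusted p = 4.15e-12), and it was -1.95 in the trend-adjusted fit. The Msi2 knockdown libraries averaged 14.97 ± 2.36 CPM and the control libraries 82.7 ± 3.09 CPM (SD, n = 3 each). Every Msi1 knockdown library thus also lay below the control average of MSI2, so the Msi1 knockdown is not a loss of MSI1 mRNA alone. The depth of the MSI2 knockdown with the Msi1 shRNA differed from that without it by 0.26 ± 0.12 on the log2 scale, which did not pass the threshold (edgeR adjusted p = 0.0925). MSI1 mRNA was at 2.01, 1.45 and 1.66 CPM in the double knockdown libraries and 1.62, 1.94 and 1.96 CPM in the Msi1 knockdown libraries. The groups overlapped and the log2 change of -0.09 ± 0.16 did not pass (edgeR adjusted p = 0.651), with a positive value of 0.068 when Msi1 knockdown replicates 2 and 3 were left out (adjusted p = 0.868). MSI1 averaged 1.71 ± 0.283 CPM in the double knockdown libraries, 1.84 ± 0.192 CPM in the Msi1 knockdown libraries, 6.14 ± 0.819 CPM in the Msi2 knockdown libraries and 4.53 ± 0.399 CPM in the control libraries (SD, n = 3 each).

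**Figure D2:**
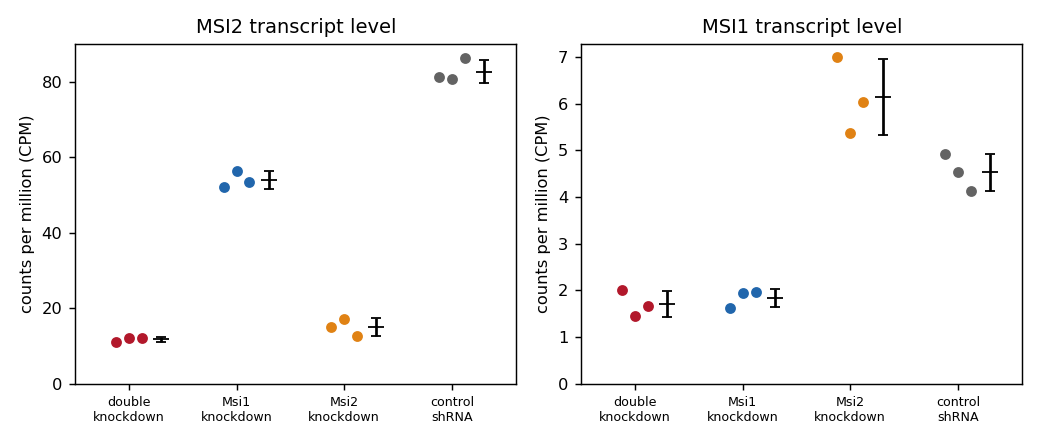
Levels of MSI2 (left) and MSI1 (right) in CPM, 1 point per library, with the group mean and SD as a bar beside the points. MSI2 is at 12.2 CPM or less in every double knockdown library and at 52.1 CPM or more in every Msi1 knockdown library, while the MSI1 levels of these groups overlap.

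Across the 15021 genes tested, 4486 (29.9%) were higher and 3933 (26.2%) lower in the double knockdown at an adjusted p below 0.05, so that 56.0% were called. Most changes were small: the median size of a called log2 change was 0.39, and 74.8% of called genes changed by less than 1.5-fold. Only 61 genes (0.406%) were called and at least 2-fold higher, and 645 (4.29%) called and at least 2-fold lower. In the trend-adjusted fit 400 genes (2.66%) were higher and 318 (2.12%) lower, of which 337 and 223 were called in the same direction without it. Without Msi1 knockdown replicates 2 and 3, against the 1 library left, 1182 genes (7.87%) were higher and 1336 (8.89%) lower, and with a correction for transcript length 4716 (31.4%) and 3760 (25.0%). Full separation of the libraries was common too: every double knockdown library was above every Msi1 knockdown library for 33.9% of genes tested, and below for 29.7%. The share of members called in a group of genes is read against these background shares.

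Genes of mitosis were higher in the double knockdown. Of 45 tested genes of the G2 phase and mitosis, 41 were called higher and none lower, with a median log2 change of 0.50 against 0.001 over all genes tested. In the trend-adjusted fit 24 were still higher and none lower, with a median of 0.27, and against the 1 Msi1 knockdown library left without replicates 2 and 3 there were 34 and none. CDC20, which activates the anaphase-promoting complex, was at 263, 251 and 232 CPM in the double knockdown libraries, against 139, 117 and 123 CPM in the Msi1 knockdown libraries. No double knockdown library was as low as any Msi1 knockdown library, and the log2 change was 0.98 ± 0.08 (SE; edgeR adjusted p = 1.68e-07). UBE2S, the ubiquitin-conjugating enzyme that extends chains on substrates of the same complex, had 222, 199 and 190.2 CPM with the added Msi2 shRNA and 112, 96.3 and 94.6 CPM with the Msi1 shRNA alone, a log2 change of 1.01 ± 0.08 (edgeR adjusted p = 2.36e-07). AURKA, the spindle pole kinase Aurora A, averaged 135 ± 7.31 CPM in the double knockdown and 76.9 ± 7.15 CPM in the Msi1 knockdown (SD, n = 3 each), a log2 change of 0.82 ± 0.08 (edgeR adjusted p = 5.57e-07). KIF2C, a kinesin that takes microtubules apart at centromeres, averaged 143 ± 4.65 and 92.1 ± 4.12 CPM in the same order of groups, a log2 change of 0.64 ± 0.06 (edgeR adjusted p = 3.87e-07). These 4 genes stayed higher in the trend-adjusted fit, at log2 changes of 0.63, 0.58, 0.41 and 0.43.

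Promoters of mitotic genes are known to share a pair of short elements, the cell cycle genes homology region (CHR), at which repressor and activator complexes of the cell cycle assemble, and the CCAAT box, bound by the factor NF-Y. The 300 bases around the annotated start (RefSeq, GRCh38.p14) were at hand for 38 of the tested mitotic genes. TTTGAA, the CHR letters, occurred on either strand in 26 of these 38 promoters (68.4%), against 9.9% of the promoters of all tested genes and 15.4% of the promoters in the whole table. CCAAT occurred on either strand in 29 of 38 (76.3%), against 36.3% of tested genes. Matches of the motifs do not overlap each other in the promoters shown. Among all genes called higher in the double knockdown, TTTGAA stood in 10.0% of promoters, and among those called lower in 10.4%, so the motif did not separate the directions across all genes. The promoters of CDC20, PLK1 and CDK1 are shown. Among mitotic genes called higher whose promoter at hand held TTTGAA, they had the smallest p, and all of them also held CCAAT. PLK1 and CDK1, the kinases that drive entry into mitosis, were chosen after their values were seen. Capitals mark TTTGAA and CCAAT or their reverse complements, on the strand of the gene.
CDC20, chr1:43358731-43359030, plus strand: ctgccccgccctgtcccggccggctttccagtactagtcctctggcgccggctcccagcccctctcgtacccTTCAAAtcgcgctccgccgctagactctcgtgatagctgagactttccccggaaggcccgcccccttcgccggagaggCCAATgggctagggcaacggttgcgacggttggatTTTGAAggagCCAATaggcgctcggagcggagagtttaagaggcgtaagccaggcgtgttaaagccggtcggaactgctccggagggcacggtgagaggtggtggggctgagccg
PLK1, chr16:23678639-23678938, plus strand: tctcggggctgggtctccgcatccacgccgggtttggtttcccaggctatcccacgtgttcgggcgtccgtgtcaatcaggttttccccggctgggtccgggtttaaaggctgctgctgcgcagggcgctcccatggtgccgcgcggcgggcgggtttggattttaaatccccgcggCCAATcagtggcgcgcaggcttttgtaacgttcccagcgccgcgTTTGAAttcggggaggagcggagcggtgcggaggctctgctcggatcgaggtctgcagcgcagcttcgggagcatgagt
CDK1, chr10:60778081-60778380, plus strand: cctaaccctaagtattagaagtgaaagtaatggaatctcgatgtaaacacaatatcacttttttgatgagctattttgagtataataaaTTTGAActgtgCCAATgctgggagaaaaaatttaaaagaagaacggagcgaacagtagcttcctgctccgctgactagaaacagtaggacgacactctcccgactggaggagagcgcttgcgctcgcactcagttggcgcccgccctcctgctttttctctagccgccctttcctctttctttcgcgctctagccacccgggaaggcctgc
The CHR letters begin 178 and 65 bases before the start of CDC20, 29 bases before that of PLK1 and 161 bases before that of CDK1. These matches of letters describe the windows, and whether any of them is a bound site was not tested. PLK1 was at 122, 117 and 109 CPM in the double knockdown libraries and 77.9, 64.5 and 67.3 CPM in the Msi1 knockdown libraries, a log2 change of 0.73 ± 0.07 (edgeR adjusted p = 7.09e-07). CDK1 was at 131, 140.3 and 125 CPM, against 91.5, 79.4 and 78.3 CPM in the Msi1 knockdown libraries, a log2 change of 0.67 ± 0.07 (edgeR adjusted p = 1e-06). For both genes the lowest double knockdown library lay above the highest Msi1 knockdown library.

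Genes of DNA replication were higher as well, by less. Of 47 tested genes of S phase, 38 were called higher and 1 lower, with a median log2 change of 0.31, but in the trend-adjusted fit only 3 were higher and 1 lower, and without Msi1 knockdown replicates 2 and 3 there were 13 and 1. RRM2, a subunit of the ribonucleotide reductase that makes deoxynucleotides, was at 347, 358 and 328 CPM in the double knockdown libraries and 229, 197 and 213 CPM in the Msi1 knockdown libraries (log2 change 0.69 ± 0.08, edgeR adjusted p = 1.91e-06). It stayed higher in the trend-adjusted fit, at 0.39 (adjusted p = 0.00526). CDT1, which licenses origins of replication, changed by 0.60 ± 0.07 (edgeR adjusted p = 6.03e-06), and by 0.29 in the trend-adjusted fit, which did not pass (adjusted p = 0.0879). Of 14 tested replication-dependent histone genes, whose mRNAs lack a poly(A) tail, 1 was higher and 2 lower, and none and 1 in the trend-adjusted fit. Without double knockdown replicate 1 or 3, or Msi1 knockdown replicate 2, there were none and 1.

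Cholesterol synthesis genes were higher in the double knockdown, and as many were called in the trend-adjusted fit as without it. Cells make cholesterol from acetyl-CoA by a chain of enzymes whose genes are switched on together by the SREBP2 factor when sterols are scarce. Of 23 tested genes of the pathway, 13 were called higher and 2 lower, a median log2 change of 0.21. In the trend-adjusted fit 13 were higher and none lower, a median of 0.33, and without Msi1 knockdown replicates 2 and 3 there were 12 and none. ACAT2, the thiolase that joins 2 acetyl-CoA molecules, was at 101, 94.6 and 94.3 CPM in the double knockdown libraries, against 55.2, 46.6 and 47.5 CPM in the Msi1 knockdown libraries (log2 change 0.95 ± 0.09, edgeR adjusted p = 3.22e-07). HMGCS1, which makes HMG-CoA, had 86.9, 93.4 and 85.7 CPM in the double knockdown and 58.0, 54.8 and 54.2 CPM in the Msi1 knockdown (log2 change 0.67 ± 0.06, edgeR adjusted p = 3.33e-07). FDFT1, squalene synthase, had 256, 244 and 234 CPM, against 151, 131 and 133 CPM in the Msi1 knockdown (log2 change 0.82 ± 0.07, edgeR adjusted p = 2.36e-07). In each of the 3 genes the groups were fully separated. INSIG1, which holds the SREBP precursors in the endoplasmic reticulum and is itself an SREBP target, was at 107, 109 and 109 CPM in the double knockdown libraries and 70.5, 71.1 and 73.6 CPM in the Msi1 knockdown libraries (log2 change 0.59 ± 0.06, edgeR adjusted p = 1.7e-06). Levels of ACAT2, HMGCS1 and FDFT1 in the control libraries were 82.1 ± 10.7, 84.3 ± 5.16 and 203 ± 4.43 CPM (SD, n = 3). These averages lay above every Msi1 knockdown library. HMGCS1 was near its double knockdown level, while the control averages of ACAT2 and FDFT1 lay between the 2 groups. INSIG1 averaged 81.9 ± 4.92 CPM in the control.

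CCAAT boxes were also frequent here, in 14 of 17 promoters of the pathway at hand (82.4%), and CACNCCAC, the core letters of the sterol regulatory element that SREBP proteins bind, occurred in 3 of 17 (17.6%), against 6.0% of tested genes and 5.7% of the table. It stood in 5.9% of promoters of genes called higher and in 5.9% of those called lower. HMGCS1 and INSIG1, the second chosen after its values were seen, are shown. They had the smallest p among pathway genes called higher whose promoter at hand held CCAAT. Capitals mark CCAAT, CACNCCAC or their reverse complements, on the strand of the gene throughout.
HMGCS1, chr5:43313363-43313662, minus strand: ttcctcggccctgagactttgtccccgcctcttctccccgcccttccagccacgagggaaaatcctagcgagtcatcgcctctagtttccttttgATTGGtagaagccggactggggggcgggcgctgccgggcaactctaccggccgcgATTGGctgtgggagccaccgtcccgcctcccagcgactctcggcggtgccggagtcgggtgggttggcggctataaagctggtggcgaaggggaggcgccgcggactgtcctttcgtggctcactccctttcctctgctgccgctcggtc
INSIG1, chr7:155297628-155297927, plus strand: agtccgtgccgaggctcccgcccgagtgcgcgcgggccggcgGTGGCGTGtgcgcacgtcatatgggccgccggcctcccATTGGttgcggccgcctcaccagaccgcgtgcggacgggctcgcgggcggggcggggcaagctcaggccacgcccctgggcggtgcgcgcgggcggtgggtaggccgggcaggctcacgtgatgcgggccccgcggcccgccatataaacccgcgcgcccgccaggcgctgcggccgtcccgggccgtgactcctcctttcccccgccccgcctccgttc
The CCAAT boxes of HMGCS1 begin 155 and 100 bases before its start. In INSIG1 the core letters begin 208 bases and the CCAAT box 170 bases before the start. A match of letters is a description of the window and not a bound site.

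Fatty acid synthesis was split, with 5 of 16 tested genes higher and 5 lower, and 4 higher and none lower in the trend-adjusted fit. The shares without trend adjustment were 31.2% each, near the 29.9% higher and 26.2% lower of all genes tested. Without double knockdown replicate 1, Msi1 knockdown replicate 2 or Msi1 knockdown replicate 3 there were 3 lower. FASN, the fatty acid synthase, averaged 629.7 ± 19.3 CPM in the double knockdown and 435 ± 6.69 CPM in the Msi1 knockdown (SD, n = 3 each; log2 change 0.53 ± 0.07, edgeR adjusted p = 6.93e-06). ACLY, which makes cytosolic acetyl-CoA for both lipid pathways, averaged 311 ± 8.16 CPM, against 221 ± 6.46 CPM in the Msi1 knockdown (log2 change 0.49 ± 0.06, edgeR adjusted p = 7.72e-06). SREBF1, which encodes the SREBP1 factors that switch on fatty acid synthesis, fell to 129, 123 and 131 CPM in the double knockdown libraries, against 163, 192 and 189 CPM in the Msi1 knockdown libraries (log2 change -0.51 ± 0.07, edgeR adjusted p = 2.41e-05), and its -0.14 after trend adjustment did not pass. FASN and ACLY stayed higher in the trend-adjusted fit, at 0.57 and 0.37. ACLY remained below its control level of 518 ± 19.8 CPM in both groups.

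Most ribosomal protein genes were called higher, and nearly all of these calls were lost in the trend-adjusted fit. Of 75 tested ribosomal protein genes, 58 were called higher and none lower, a median log2 change of 0.30. In the trend-adjusted fit 1 was higher and 7 lower, a median of -0.14, so the direction of the list turned. Leaving out double knockdown replicate 1, Msi1 knockdown replicate 2 or Msi1 knockdown replicate 3 left 35, 27 or 28 higher. RPL14, a protein of the large subunit, was the member still higher in the trend-adjusted fit. It had 559.8, 542 and 523 CPM in the double knockdown libraries and 325, 282 and 275 CPM in the Msi1 knockdown libraries (log2 change 0.88 ± 0.08, edgeR adjusted p = 3.83e-07; 0.49 after trend adjustment, adjusted p = 0.000106). RPL3 changed by 0.54 ± 0.09 (edgeR adjusted p = 6.68e-05), and by 0.15 after trend adjustment (adjusted p = 0.25). Many ribosomal protein genes have near-identical pseudogenes, so the split of reads among them is uncertain.

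Of 46 tested translation factors, 37 were higher and none lower, and 1 was higher in the trend-adjusted fit. Without double knockdown replicate 2, Msi1 knockdown replicate 2 or Msi1 knockdown replicate 3 there were 24, 18 or 20 higher. EIF5A, an elongation factor that carries the modified residue hypusine, was at 477, 429 and 422 CPM in the double knockdown libraries and 264, 236 and 239 CPM in the Msi1 knockdown libraries (log2 change 0.85 ± 0.07, edgeR adjusted p = 2.87e-07), and stayed higher after trend adjustment, at 0.58. EIF4EBP1, an inhibitor of cap-dependent initiation, changed by 0.64 ± 0.09 (edgeR adjusted p = 3.02e-05), and by 0.23 after trend adjustment (adjusted p = 0.31). Of 35 genes of ribosome biogenesis and MYC targets, 26 were higher and 1 lower, with 3 higher and none lower after trend adjustment. NOLC1, a nucleolar phosphoprotein, averaged 398 ± 5.53 CPM in the double knockdown and 255 ± 5.12 CPM in the Msi1 knockdown (log2 change 0.64 ± 0.06, edgeR adjusted p = 3.3e-07; 0.54 after trend adjustment).

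Proteasome subunits were called higher in 29 of 31 cases and lower in none, a median log2 change of 0.35, and heat shock chaperones in 15 of 17 and none, a median of 0.39. After trend adjustment no member of either list was called in either direction, at medians of 0.03 and 0.10, and without Msi1 knockdown replicates 2 and 3 there were 4 and 2 higher. PSMA7, a subunit of the 20S core, averaged 173 ± 9.56 CPM in the double knockdown and 121 ± 10.6 CPM in the Msi1 knockdown (log2 change 0.51 ± 0.08, edgeR adjusted p = 5.27e-05; 0.13 after trend adjustment). PSMD7, a subunit of the lid, changed by 0.45 ± 0.07 (edgeR adjusted p = 5.08e-05; 0.13 after trend adjustment). HSPB1, a small heat shock protein, had 277, 252 and 239.9 CPM in the double knockdown libraries and 186, 168 and 153 CPM in the Msi1 knockdown libraries (log2 change 0.60 ± 0.09, edgeR adjusted p = 1.91e-05; 0.16 after trend adjustment). HSP90AB1, a constitutive HSP90, changed by 0.49 ± 0.08 (edgeR adjusted p = 7.78e-05; 0.23 after trend adjustment). None of these 4 changes passed after trend adjustment.

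Of 54 nuclear genes of oxidative phosphorylation, 43 were higher and none lower, and in the trend-adjusted fit none were higher and 1 lower. Without Msi1 knockdown replicate 2 or 3 there were 27 or 28 higher. SDHB, the iron-sulphur subunit of complex II, averaged 141 ± 7.47 CPM in the double knockdown and 93.3 ± 8.36 CPM in the Msi1 knockdown (log2 change 0.59 ± 0.08, edgeR adjusted p = 1.19e-05; 0.18 after trend adjustment). UQCRFS1, the Rieske protein of complex III, changed by 0.60 ± 0.09 (edgeR adjusted p = 3.02e-05; 0.09 after trend adjustment). The 13 genes that mitochondria encode themselves did not share this direction: none was higher and 3 were lower (23.1%, near the 26.2% of all genes), a median log2 change of -0.20, and it was 0.23 after trend adjustment, where none was called. The count lower was 1 without double knockdown replicate 1 or 2 or Msi1 knockdown replicate 2, and 6 without Msi1 knockdown replicate 1.

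Of 33 genes of the hypoxia response and glycolysis, 20 were higher and 1 lower, and in the trend-adjusted fit 3 were higher and 1 lower. The member that fell was VEGFA, the vascular endothelial growth factor. It was at 37.7, 35.2 and 36.1 CPM in the double knockdown libraries and 50.8, 53.7 and 54.1 CPM in the Msi1 knockdown libraries (log2 change -0.54 ± 0.06, edgeR adjusted p = 4.51e-06), and it stayed lower after trend adjustment, at -0.32. NDRG1, a hypoxia-induced growth regulator, moved the other way, at 14.0, 12.5 and 13.2 CPM in the double knockdown libraries and 9.24, 9.09 and 8.17 CPM in the Msi1 knockdown libraries (log2 change 0.58 ± 0.09, edgeR adjusted p = 4.9e-05), and its 0.38 after trend adjustment did not pass.

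Antioxidant genes under the NRF2 factor were higher in 15 of 23 cases and lower in 2, and in the trend-adjusted fit 2 were higher and 2 lower. AKR1C1, an aldo-keto reductase that acts on steroids and lipid aldehydes, was at 125, 116 and 110.0 CPM in the double knockdown libraries and 61.0, 56.4 and 58.9 CPM in the Msi1 knockdown libraries. The log2 change of 0.99 ± 0.06 (edgeR adjusted p = 1.46e-08) was 0.80 after trend adjustment; AKR1C genes are near copies of each other, so the split of reads among them is uncertain. SLC7A11, the cystine importer that supplies glutathione synthesis, fell to 20.1, 24.2 and 25.3 CPM in the double knockdown libraries, against 36.4, 46.6 and 44.9 CPM in the Msi1 knockdown libraries (log2 change -0.88 ± 0.10, edgeR adjusted p = 3.4e-06; -0.43 after trend adjustment). SLC7A11 is also on the list of ATF4 and integrated stress response genes, where 8 of 28 were higher and 10 lower, and none was higher and 4 were lower after trend adjustment. Leaving out 1 library left between 3 and 10 of them higher, the lowest count without Msi1 knockdown replicate 2 or 3.

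Interferon-stimulated genes were higher in 17 of 39 cases and lower in 6, and in the trend-adjusted fit in 5 and 1. Their median log2 change was 0.098, and 0.023 after trend adjustment. Single members ran from -0.963 to 0.805 without adjustment, so the largest change on the list was a fall. OASL, an oligoadenylate synthetase-like protein with antiviral action, was at 46.0, 46.3 and 43.1 CPM in the double knockdown libraries and 27.2, 27.5 and 28.1 CPM in the Msi1 knockdown libraries, with no overlap (log2 change 0.71 ± 0.06, edgeR adjusted p = 2.98e-07; 0.58 after trend adjustment). HERC5, the main ligase for the ubiquitin-like protein ISG15, was at 17.3, 19.8 and 18.2 CPM in the double knockdown libraries, against 11.1, 10.2 and 10.4 CPM in the Msi1 knockdown libraries (log2 change 0.80 ± 0.08, edgeR adjusted p = 7.21e-07; 0.56 after trend adjustment).

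**Figure D3:**
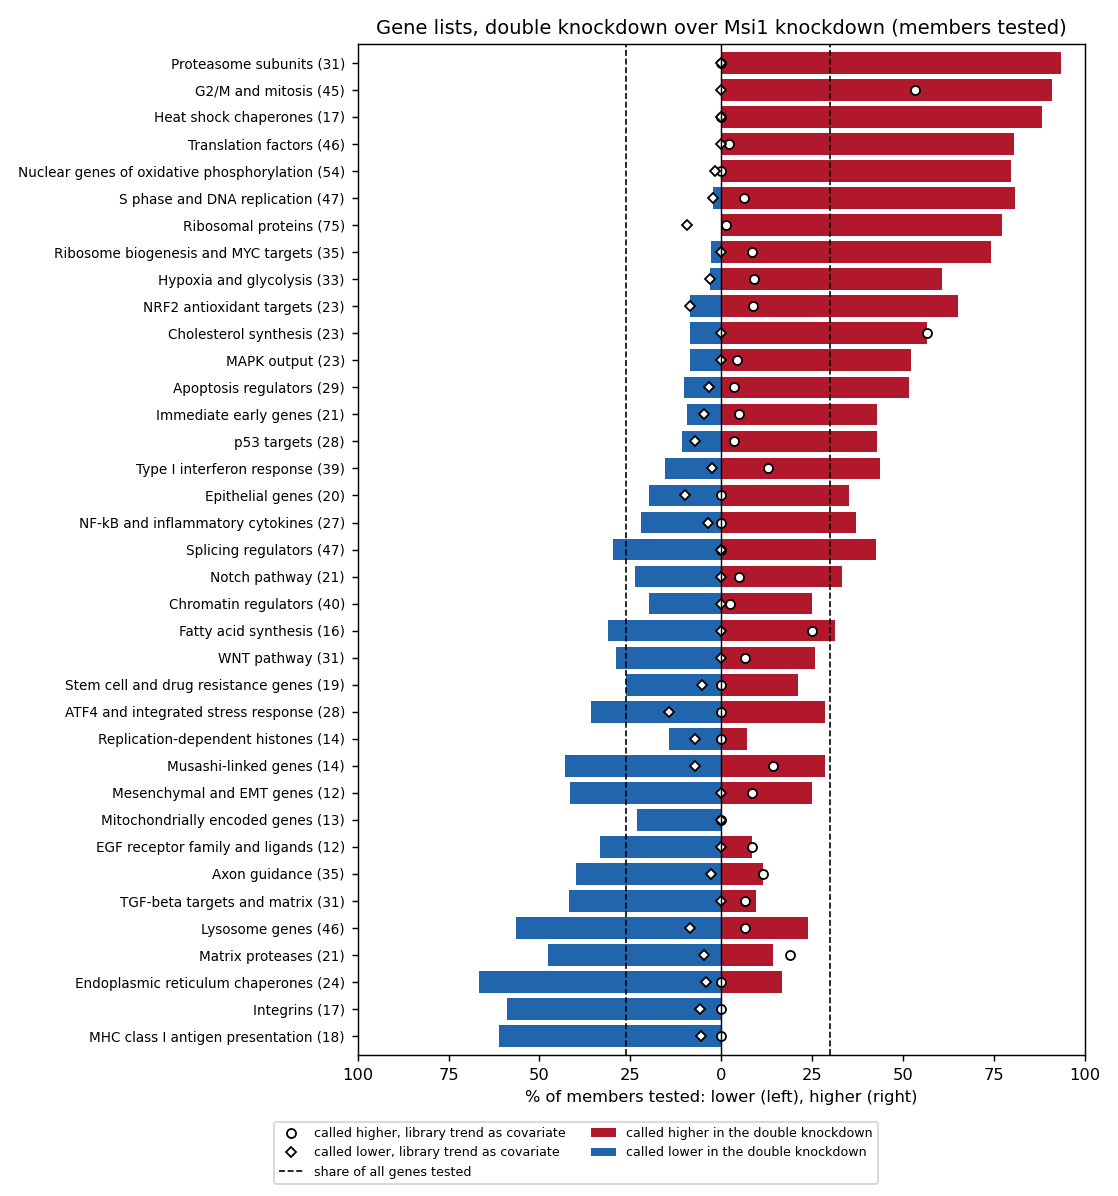
Share of tested members (%) called lower (left, blue) or higher (right, red) in the double knockdown over the Msi1 knockdown at an adjusted p below 0.05, for 37 gene lists with the number of members tested in brackets. Circles and diamonds give the shares called higher and lower in the trend-adjusted fit, and dashed lines the shares of all genes tested (29.9% higher and 26.2% lower); the circle of cholesterol synthesis lies at 56.5% and that of G2/M and mitosis at 53.3%, while those of the proteasome, heat shock chaperones and oxidative phosphorylation lie at 0.

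Genes for antigen presentation on MHC class I were lower. Of 18 tested, 11 were called lower and none higher, a median log2 change of -0.30, and in the trend-adjusted fit 1 was lower and none higher, a median of -0.13. ERAP2, an aminopeptidase that trims peptides in the endoplasmic reticulum, was at 15.2, 14.7 and 17.2 CPM in the double knockdown libraries and 25.9, 26.9 and 28.8 CPM in the Msi1 knockdown libraries (log2 change -0.80 ± 0.10, edgeR adjusted p = 4.95e-06). It was the member still lower after trend adjustment, at -0.41 (adjusted p = 0.0473). Its paralog ERAP1 was at 24.5, 23.5 and 26.1 CPM in the double knockdown libraries, against 34.5, 42.7 and 43.1 CPM in the Msi1 knockdown libraries. Its log2 change was -0.70 ± 0.09 (edgeR adjusted p = 5.35e-06), and the -0.28 after trend adjustment did not pass. Of 24 chaperones and quality control genes of the endoplasmic reticulum, 16 were lower and 4 higher, and 1 and none after trend adjustment. The 4 higher became none without double knockdown replicate 1, 1 without Msi1 knockdown replicate 2, and 2 without double knockdown replicate 2 or Msi1 knockdown replicate 1 or 3. SEL1L, the scaffold of the ligase that extracts misfolded proteins, averaged 47.2 ± 2.95 CPM in the double knockdown and 86.9 ± 12.01 CPM in the Msi1 knockdown (log2 change -0.88 ± 0.09, edgeR adjusted p = 1.16e-06; -0.42 after trend adjustment). SYVN1, the ligase that SEL1L holds, averaged 43.2 ± 0.799 and 60.4 ± 7.96 CPM in the same groups (log2 change -0.48 ± 0.09, edgeR adjusted p = 0.000158), but its value after trend adjustment was 0.00.

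Cell surface and matrix genes also tended to be lower in the double knockdown in the fit without the trend. Of 17 integrin genes 10 were lower and none higher, of 31 TGF-beta targets and matrix genes 13 were lower and 3 higher, and of 21 matrix proteases 10 were lower and 3 higher. After trend adjustment these counts were 1 and none, none and 2, and 1 and 4, and without double knockdown replicate 1 there was 1 protease higher. The median log2 changes were -0.434 for integrins, -0.228 for TGF-beta targets and matrix and -0.407 for proteases. After trend adjustment they were -0.005, 0.081 and 0.069, so the direction of the matrix and protease lists turned. ITGB8, the beta subunit of an integrin that activates latent TGF-beta, was at 9.89, 10.7 and 11.4 CPM in the double knockdown libraries and 18.3, 22.9 and 23.1 CPM in the Msi1 knockdown libraries. Its log2 change was -1.01 ± 0.11 (edgeR adjusted p = 2.48e-06), and the -0.38 after trend adjustment did not pass. ITGA3, the alpha subunit of a laminin receptor, was at 234, 214 and 237 CPM, against 328, 403 and 397 CPM in the Msi1 knockdown libraries (log2 change -0.72 ± 0.09, edgeR adjusted p = 4.04e-06), and it was the integrin still lower after trend adjustment, at -0.29. PLAT, the tissue plasminogen activator, had a low level of 1.67, 1.13 and 1.50 CPM in the double knockdown libraries and 3.84, 3.55 and 3.92 CPM in the Msi1 knockdown libraries (log2 change -1.38 ± 0.17, edgeR adjusted p = 6.63e-06; -1.09 after trend adjustment, adjusted p = 0.0339). COL7A1, the collagen of anchoring fibrils, averaged 3.87 ± 0.277 CPM in the double knockdown and 8.67 ± 0.627 CPM in the Msi1 knockdown (log2 change -1.17 ± 0.16, edgeR adjusted p = 1.93e-05), and TIMP1, an inhibitor of matrix metalloproteinases, 565 ± 32.7 and 745 ± 56.5 CPM (log2 change -0.40 ± 0.08, edgeR adjusted p = 0.000235). Neither passed after trend adjustment, at -0.45 and -0.20.

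Lysosomal genes were lower in 26 of 46 cases and higher in 11, and in the trend-adjusted fit in 4 and 3. TPP1, a lysosomal tripeptidyl peptidase, was at 153, 148 and 166 CPM in the double knockdown libraries and 226, 274 and 281 CPM in the Msi1 knockdown libraries (log2 change -0.74 ± 0.08, edgeR adjusted p = 2.1e-06; -0.33 after trend adjustment). ATP6V0A1, a subunit of the proton pump that acidifies lysosomes, was at 72.5, 70.2 and 71.5 CPM, against 106, 127 and 128 CPM in the Msi1 knockdown libraries (log2 change -0.75 ± 0.08, edgeR adjusted p = 1.16e-06; -0.35 after trend adjustment). ATP6V1E1, another subunit of that pump, moved the other way, at 146, 132 and 137 CPM in the double knockdown libraries and 97.0, 83.6 and 84.0 CPM in the Msi1 knockdown libraries (log2 change 0.65 ± 0.08, edgeR adjusted p = 4.57e-06), and its 0.25 after trend adjustment did not pass. Axon guidance genes, many of which act as surface receptors in epithelial cells too, were lower in 14 of 35 cases and higher in 4, and after trend adjustment in 1 and 4. Their median log2 change was -0.325, and it turned to 0.082 after trend adjustment. Without double knockdown replicate 1 or 2, or Msi1 knockdown replicate 1, there were 2, 2 and 1 higher. The member still lower was PLXNB2, a semaphorin receptor, at 94.2 ± 4.37 CPM in the double knockdown and 160.3 ± 20.2 CPM in the Msi1 knockdown (log2 change -0.77 ± 0.09, edgeR adjusted p = 2.5e-06; -0.30 after trend adjustment). SEMA3B, a secreted semaphorin, changed by -1.11 ± 0.13 (edgeR adjusted p = 4.51e-06), and its -0.47 after trend adjustment did not pass.

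Signalling lists held changes in both directions. Of 21 immediate early genes 9 were higher and 2 lower, and of 23 genes that report on MAPK output 12 were higher and 2 lower; in the trend-adjusted fit there were 1 and 1, and 1 and none. NR4A1, an orphan nuclear receptor induced within minutes of a stimulus, was at 7.43, 6.64 and 6.89 CPM in the double knockdown libraries and 2.91, 3.88 and 3.27 CPM in the Msi1 knockdown libraries, fully separated (log2 change 1.06 ± 0.12, edgeR adjusted p = 2.15e-06), and it stayed higher after trend adjustment, at 1.14. DUSP5, a phosphatase of nuclear ERK, averaged 18.6 ± 1.44 CPM in the double knockdown and 10.5 ± 0.875 CPM in the Msi1 knockdown (log2 change 0.83 ± 0.10, edgeR adjusted p = 3.94e-06; 0.52 after trend adjustment, adjusted p = 0.053). Among 28 p53 targets 12 were higher and 3 lower, with 1 and 2 after trend adjustment, and leaving out double knockdown replicate 2 or Msi1 knockdown replicate 2 or 3 left 5, 4 or 6 higher. CDKN1A, which encodes the cyclin-dependent kinase inhibitor p21, was at 24.9, 23.1 and 22.4 CPM in the double knockdown libraries, against 15.03, 12.8 and 14.0 CPM in the Msi1 knockdown libraries (log2 change 0.76 ± 0.09, edgeR adjusted p = 2.52e-06; 0.54 after trend adjustment). MDM2, the ligase that degrades p53, was at 44.2, 49.6 and 51.2 CPM in the double knockdown libraries and 71.9, 71.5 and 75.0 CPM in the Msi1 knockdown libraries (log2 change -0.59 ± 0.06, edgeR adjusted p = 1.42e-06; -0.47 after trend adjustment). These textbook targets of p53 thus changed in opposite directions.

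Of 27 NF-kB and inflammatory cytokine genes 10 were higher and 6 lower, with none and 1 after trend adjustment, and without double knockdown replicate 1 or Msi1 knockdown replicate 2 there were 6 or 4 higher. IL1B, interleukin-1 beta, had a low level of 2.07, 2.03 and 1.76 CPM in the double knockdown libraries and 1.01, 0.881 and 0.690 CPM in the Msi1 knockdown libraries. Its log2 change was 1.16 ± 0.21 (edgeR adjusted p = 0.000149), and the 0.31 after trend adjustment did not pass. TNFAIP3, a feedback inhibitor of NF-kB, averaged 23 ± 1.51 CPM in the double knockdown and 29.3 ± 2.46 CPM in the Msi1 knockdown. Its log2 change was -0.35 ± 0.07 (edgeR adjusted p = 0.000494), and the -0.29 after trend adjustment did not pass. Of 29 apoptosis regulators 15 were higher and 3 lower, with 1 and 1 after trend adjustment. The remaining lists were divided: Musashi-linked genes 4 of 14 higher and 6 lower, with the targeted MSI2 itself among those lower, splicing regulators 20 of 47 and 14, chromatin regulators 10 of 40 and 8, and epithelial genes 7 of 20 and 4. Mesenchymal genes were higher in 3 of 12 cases and lower in 5, the Notch pathway in 7 of 21 and 5, and the WNT pathway in 8 of 31 and 9. The EGF receptor family had 1 of 12 higher and 4 lower, and genes of stem cells and drug resistance 4 of 19 and 5. Of all genes tested 29.9% were higher and 26.2% lower. Near these shares were Notch at 33.3 and 23.8%, WNT at 25.8 and 29%, chromatin at 25 and 20%, and stem cell genes at 21.1 and 26.3%. After trend adjustment at most 2 members of any of these 9 lists were called higher, and at most 2 lower. Leaving out 1 library moved several of these counts by more than 1.5 times, for example the WNT genes higher to 3 without Msi1 knockdown replicate 3 and the epithelial genes higher to 3 without Msi1 knockdown replicate 2.

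Markers of other cell types were mixed in direction. Of 7 tested fibroblast markers none was higher and 4 were lower, of 4 endothelial markers none and 2, and of 4 blood markers 1 and 1. After trend adjustment these were none and 1, none and none, and 1 and none, and the count of blood markers lower was none without replicate 2 or 3 of either group and 2 without Msi1 knockdown replicate 1. KRT19, the ductal keratin and the only tested marker of pancreatic acinar and ductal cells, was at 80.9, 79.1 and 71.6 CPM in the double knockdown libraries and 73.9, 66.2 and 64.1 CPM in the Msi1 knockdown libraries, which overlapped (log2 change 0.18 ± 0.08, edgeR adjusted p = 0.0475). Its value was -0.19 after trend adjustment (adjusted p = 0.242) and 0.042 without Msi1 knockdown replicates 2 and 3 (adjusted p = 0.807), and the call was lost under RLE size factors, in DESeq2, and without double knockdown replicate 1 or 2 or Msi1 knockdown replicate 2 or 3. The marker lists summed to 799 to 898 CPM in the double knockdown libraries and 949 to 1170 CPM in the Msi1 knockdown libraries for fibroblast markers, and 36.8 to 38.7 against 46.9 to 55.1 CPM for endothelial markers. Blood cell markers summed to 48.9 to 53 CPM in the double knockdown libraries and 37.3 to 44.2 CPM in the Msi1 knockdown libraries. Ductal and acinar markers summed to 71.7 to 81.0 and 64.5 to 74.1 CPM, and neuronal genes of virus packaging cells to 50.9 to 55.8 and 54.8 to 57.8 CPM, in the same order of groups. Most of the blood signal was CD68, at 47.0 ± 2.00 CPM in the double knockdown and 37.1 ± 3.21 CPM in the Msi1 knockdown, a protein that tumour lines express as well. The fibroblast sum was mostly collagen, with COL3A1 at 292 ± 27.8 CPM in the double knockdown and 385 ± 43.9 CPM in the Msi1 knockdown (log2 change -0.40 ± 0.10, edgeR adjusted p = 0.00164; 0.04 after trend adjustment). DCN, the matrix proteoglycan decorin, was the fibroblast marker still lower after trend adjustment. It was at 0.433, 0.346 and 0.596 CPM in the double knockdown libraries and 1.18, 0.856 and 0.872 CPM in the Msi1 knockdown libraries, a low level (log2 change -1.10 ± 0.27, edgeR adjusted p = 0.00207; -1.71 after trend adjustment, adjusted p = 0.0235). Under 1 CPM in every library were 5 of 10 fibroblast, 3 of 6 endothelial, 4 of 8 blood, 6 of 7 acinar and ductal and 4 of 5 neuronal markers, and CD3E, PNLIP and INA had no count in any library. The part of these sums in the other results was not tested.

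The largest rise among genes with at least 10 CPM in the higher group was that of UCP2, an uncoupling protein of the inner mitochondrial membrane. It was at 16.9, 14.0 and 14.9 CPM in the double knockdown libraries and 7.13, 5.06 and 5.70 CPM in the Msi1 knockdown libraries (log2 change 1.36 ± 0.12, edgeR adjusted p = 3.22e-07). Its level in the Msi2 knockdown, 20.1 ± 1.70 CPM, and in the control, 14.9 ± 2.07 CPM, lay nearer to the double knockdown. DHRS2, a mitochondrial short-chain dehydrogenase, was at 12.4, 11.6 and 12 CPM in the double knockdown libraries, against 5.84, 5.44 and 4.28 CPM in the Msi1 knockdown libraries (log2 change 1.20 ± 0.11, edgeR adjusted p = 3.22e-07). The Msi2 knockdown averaged 4.82 ± 0.570 CPM and the control 7.63 ± 0.862 CPM, so the double knockdown libraries were the highest of the 12. PDXP, a phosphatase of pyridoxal phosphate and of cofilin, was at 23.6, 18.7 and 17.2 CPM in the double knockdown libraries and 10.1, 8.96 and 9.41 CPM in the Msi1 knockdown libraries (log2 change 1.07 ± 0.11, edgeR adjusted p = 7.21e-07). H19, an imprinted long noncoding RNA, was at 17.8, 15.7 and 18.1 CPM, against 8.996, 8.56 and 7.77 CPM in the Msi1 knockdown libraries (log2 change 1.02 ± 0.11, edgeR adjusted p = 1.48e-06), and at 21.5 ± 2.90 CPM in the control.

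AVPI1, named for its induction by vasopressin, was at 17.9, 17.3 and 18.0 CPM in the double knockdown libraries and 9.02, 9.04 and 8.53 CPM in the Msi1 knockdown libraries (log2 change 1.00 ± 0.09). DUSP9, a phosphatase of ERK in the cytoplasm, was at 17.9, 16.6 and 16.5 CPM, against 9.46, 8.26 and 8.68 CPM in the Msi1 knockdown libraries (log2 change 0.95 ± 0.08). RASL11A, a Ras-like GTPase, was at 29.8, 26.8 and 25.6 CPM in the double knockdown libraries and 15.7, 13.5 and 13.2 CPM in the Msi1 knockdown libraries (log2 change 0.95 ± 0.09). MT1E, a metallothionein that binds zinc, was at 398, 383 and 356 CPM in the double knockdown libraries, against 211, 195 and 187 CPM in the Msi1 knockdown libraries (log2 change 0.94 ± 0.10), with reads that may be shared among metallothionein copies. With UBE2S, AKR1C1, CDC20 and ACAT2, given above, these are the 12 largest rises. Full separation of the groups was a condition of their choice, and the largest edgeR adjusted p among the 12 was 2.15e-06. All 12 were still called higher in the trend-adjusted fit, at smaller log2 changes, from 0.436 for MT1E to 0.886 for DHRS2, with UCP2 at 0.821.

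**Figure D4:**
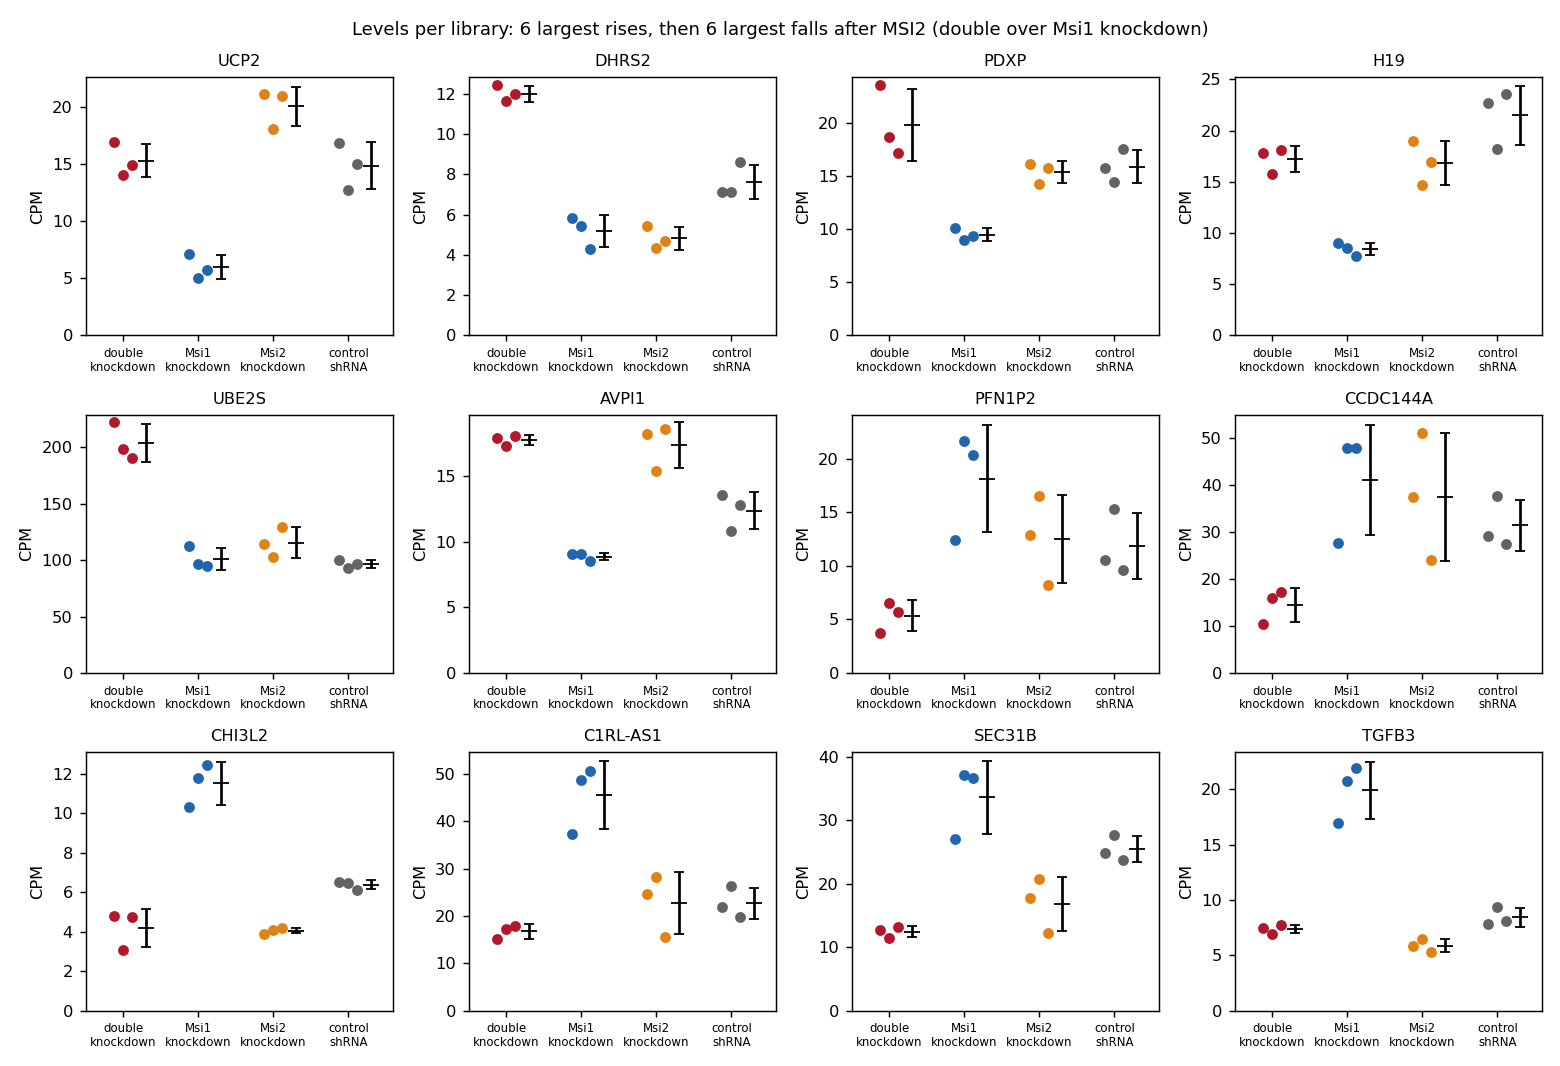
Levels (CPM) of the 6 largest rises and the 6 largest falls after MSI2, 1 point per library, with the group mean and SD as a bar beside the points; groups from left to right are double knockdown, Msi1 knockdown, Msi2 knockdown and control shRNA. The genes were chosen for separate double knockdown and Msi1 knockdown points, and in PFN1P2 and CCDC144A the Msi1 knockdown points are spread widely.

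Protein-coding genes with large falls, after MSI2 itself, included CHI3L2 and TGFB3. CHI3L2, a secreted chitinase-like protein, was at 4.78, 3.09 and 4.74 CPM in the double knockdown libraries and 10.3, 11.8 and 12.5 CPM in the Msi1 knockdown libraries (log2 change -1.45 ± 0.12, edgeR adjusted p = 2.43e-07; -1.25 in the trend-adjusted fit). TGFB3, a ligand of the TGF-beta receptors, was at 7.48, 6.96 and 7.72 CPM, against 17.0, 20.8 and 21.9 CPM in the Msi1 knockdown libraries (log2 change -1.43 ± 0.10, edgeR adjusted p = 5.64e-08; -0.89 after trend adjustment). The Msi2 knockdown averaged 5.87 ± 0.586 CPM of TGFB3 and the control 8.42 ± 0.851 CPM, so the Msi1 knockdown libraries were the highest of the 4 groups. SEC31B, a coat protein of vesicles leaving the endoplasmic reticulum, averaged 12.4 ± 0.839 CPM in the double knockdown and 33.6 ± 5.71 CPM in the Msi1 knockdown (log2 change -1.43 ± 0.17, edgeR adjusted p = 3.68e-05). SLC44A5, of the choline transporter-like family, averaged 5.12 ± 0.805 CPM in the double knockdown, against 13.2 ± 1.25 CPM in the Msi1 knockdown (log2 change -1.38 ± 0.17, edgeR adjusted p = 1.56e-05). PABPC1L, a poly(A)-binding protein, averaged 34.5 ± 1.60 CPM in the double knockdown and 87.4 ± 10.7 CPM in the Msi1 knockdown (log2 change -1.34 ± 0.18, edgeR adjusted p = 0.000119). SEC31B, SLC44A5 and PABPC1L stayed lower after trend adjustment, at the smaller changes of -0.587, -0.595 and -0.52.

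Among the other large falls were transcripts whose counts are uncertain or whose call depends on the setting. PFN1P2, a profilin pseudogene, was at 3.78, 6.57 and 5.70 CPM in the double knockdown libraries and 12.4, 21.7 and 20.4 CPM in the Msi1 knockdown libraries (log2 change -1.77 ± 0.35, edgeR adjusted p = 0.00232), and CCDC144A, a member of a duplicated family, at 10.5, 16.1 and 17.3 and 27.6, 48.0 and 47.9 CPM (log2 change -1.51 ± 0.34, edgeR adjusted p = 0.0057). Neither was called in the trend-adjusted fit, at -0.29 and 0.01, nor without Msi1 knockdown replicates 2 and 3 (adjusted p = 0.121 and 0.207). RBP5, a retinol-binding protein, changed by -1.41 ± 0.21 (edgeR adjusted p = 0.00015), and by -0.38 after trend adjustment, which did not pass. C1RL-AS1, antisense to C1RL and not separable from it if strand was not kept, changed by -1.44 ± 0.21 (edgeR adjusted p = 0.000274). GOLGA8N, one of many golgin copies, changed by -1.34 ± 0.16. After trend adjustment C1RL-AS1 and GOLGA8N were at -0.482 and -0.538. The uncharacterised LOC100289279 changed by -1.38 ± 0.14 (edgeR adjusted p = 3.04e-06) and stayed lower after trend adjustment, at -0.64 (adjusted p = 0.00292). Of the 12 largest falls, MSI2 included and chosen for full separation as well, 9 were still called in the trend-adjusted fit.

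The same Msi2 shRNA was also compared without the Msi1 shRNA, in the Msi2 knockdown over the control libraries, which share no library with the comparison above. There 2501 genes (16.7%) were higher and 2044 (13.6%) lower. Of the genes higher in the double knockdown over the Msi1 knockdown, 1104 were also higher in the Msi2 knockdown over control, 24.6% of the first list and 44.1% of the second, while 337 were lower (7.51% and 16.5% of those lists). Of the genes lower in the double knockdown, 749 were lower in both comparisons (19% and 36.6%) and 444 were higher in the Msi2 knockdown (11.3% and 17.8%). Across the 15021 genes the log2 changes correlated with a Pearson r of 0.259 and a Spearman rho of 0.214, a description over genes that are not independent. The difference between the changes was tested for each gene in the same edgeR model. It was called for 6058 genes (40.3%), more positive with the Msi1 shRNA for 3192 (21.3%) and more negative for 2866 (19.1%), and in the trend-adjusted fit for 183 (1.22%) and 409 (2.72%). The differences of single genes below are from the fit without the trend.

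In these comparisons the Msi2 shRNA cannot be told apart from its virus and the sorting gate. For some genes the changes with and without the Msi1 shRNA had the same direction, and the test of the difference did not pass. A test that does not pass does not show that the changes were equal. AKR1C1 changed by 0.99 ± 0.06 with it and by 0.98 ± 0.07 without it, a difference of 0.02 ± 0.09 (edgeR adjusted p = 0.905). RASL11A changed by 0.95 ± 0.09 and 1.07 ± 0.10, a difference of -0.11 ± 0.13 (adjusted p = 0.501), DUSP9 by 0.95 ± 0.08 and 0.73 ± 0.08, a difference of 0.23 ± 0.12 (adjusted p = 0.129), and INSIG1 by 0.59 ± 0.06 and 0.58 ± 0.06, a difference of 0.02 ± 0.09 (adjusted p = 0.888). CDKN1A and MDM2 also moved the same way in both settings, CDKN1A by 0.54 ± 0.10 and MDM2 by -0.45 ± 0.06 without the Msi1 shRNA. NR4A1 rose in both, by 1.06 ± 0.12 with and 1.54 ± 0.13 without the Msi1 shRNA, and the rise was smaller with it (difference -0.49 ± 0.18, edgeR adjusted p = 0.0341).

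Other genes had a large change without the Msi1 shRNA and a small one with it, and the test of the difference passed. KRT80, a keratin, changed by -0.21 ± 0.07 with the Msi1 shRNA and by -1.32 ± 0.07 without it (difference 1.12 ± 0.09, edgeR adjusted p = 3.61e-07). Its levels were 40.5 ± 0.654 CPM in the double knockdown, 46.6 ± 2.01 CPM in the Msi1 knockdown, 40.9 ± 2.29 CPM in the Msi2 knockdown and, in the control, 102 ± 7.40 CPM, so all 3 knockdowns were low. FOS, a subunit of the AP-1 factor, changed by 0.23 ± 0.13 with the Msi1 shRNA, which did not pass (adjusted p = 0.155), and by -1.81 ± 0.14 without it (difference 2.04 ± 0.19, edgeR adjusted p = 8.7e-07). NES, the intermediate filament nestin, had 27.2 ± 1.43 CPM in the double knockdown, 27.4 ± 1.42 CPM in the Msi1 knockdown, 25.7 ± 1.35 CPM in the Msi2 knockdown and, in the control, 8.88 ± 1.44 CPM, with a change of -0.01 ± 0.08 that did not pass (adjusted p = 0.898), against 1.50 ± 0.09 without the Msi1 shRNA (difference -1.51 ± 0.12, edgeR adjusted p = 3.61e-07). IFITM1, an interferon-induced membrane protein, changed by -0.10 ± 0.07 with the Msi1 shRNA, which did not pass (adjusted p = 0.215), and by 1.09 ± 0.07 without it (difference -1.19 ± 0.10, edgeR adjusted p = 3.61e-07). In KRT80 and NES the Msi1 knockdown alone lay nearer to the Msi2 knockdown than to the control.

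A further set of genes was called in opposite directions. DHRS2 rose by 1.20 ± 0.11 with the Msi1 shRNA, and its change without it was -0.64 ± 0.12 (difference 1.84 ± 0.16, edgeR adjusted p = 4.51e-07). OASL changed by 0.71 ± 0.06 with and -0.21 ± 0.06 without the Msi1 shRNA (difference 0.93 ± 0.09, edgeR adjusted p = 1.13e-06). EIF4EBP2, a repressor of cap-dependent translation, changed by 0.40 ± 0.08 with and -0.74 ± 0.08 without it (difference 1.14 ± 0.11, edgeR adjusted p = 1.51e-06). C1R, a protease of the complement cascade, changed by -1.10 ± 0.10 with and 0.66 ± 0.10 without the Msi1 shRNA (difference -1.76 ± 0.14, edgeR adjusted p = 3.61e-07), and GANAB, a glucosidase of glycoprotein folding, by -0.46 ± 0.08 and 0.99 ± 0.08 (difference -1.45 ± 0.12, edgeR adjusted p = 3.61e-07). In the trend-adjusted fit the changes of EIF4EBP2 and GANAB with the Msi1 shRNA no longer passed, at 0.05 and -0.08. Of the 12 largest rises 9 passed the test of the difference, 8 were also higher in the Msi2 knockdown over control and 2 were lower there. Among the 12 largest falls 11 passed, 6 were also lower there and none was higher. Both sets were chosen by their change with the Msi1 shRNA, which is itself part of the tested difference. Their choice thus favours passes in the direction of that change, and these counts are a description only.

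By list, counts of called differences are read against 21.3% of all genes more positive and 19.1% more negative. The mitotic genes had 20 higher and 5 lower in the Msi2 knockdown over control, with a median log2 change of 0.16, and the change was more positive with the Msi1 shRNA for 37 of 45 and more negative for none (median difference 0.38). S phase genes had 2 higher and 9 lower there, and 34 of 47 were more positive with the Msi1 shRNA. For ribosomal proteins none was higher and 3 were lower there, and 64 of 75 were more positive with the Msi1 shRNA. Cholesterol synthesis had 8 higher and 2 lower there, with 9 of 23 more positive and 3 more negative (median difference 0.05). NF-kB and cytokine genes had 21 of 27 higher and none lower in the Msi2 knockdown over control, and 13 were more negative with the Msi1 shRNA. MHC class I genes had 7 of 18 higher and none lower there, with 12 more negative, integrins 5 of 17 higher and 2 lower, with 10 more negative, and endoplasmic reticulum chaperones 13 of 24 higher and 1 lower, with 18 more negative. In the trend-adjusted fit the difference was called more positive for 4 of 45 mitotic, 4 of 47 S phase, 1 of 75 ribosomal protein and 6 of 23 cholesterol synthesis genes, where the ribosomal median difference was -0.09. It was called more negative there for 11 of 27 NF-kB and cytokine genes, none of the MHC class I genes, 3 of 17 integrins and 5 of 24 endoplasmic reticulum chaperones.

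**Figure D5:**
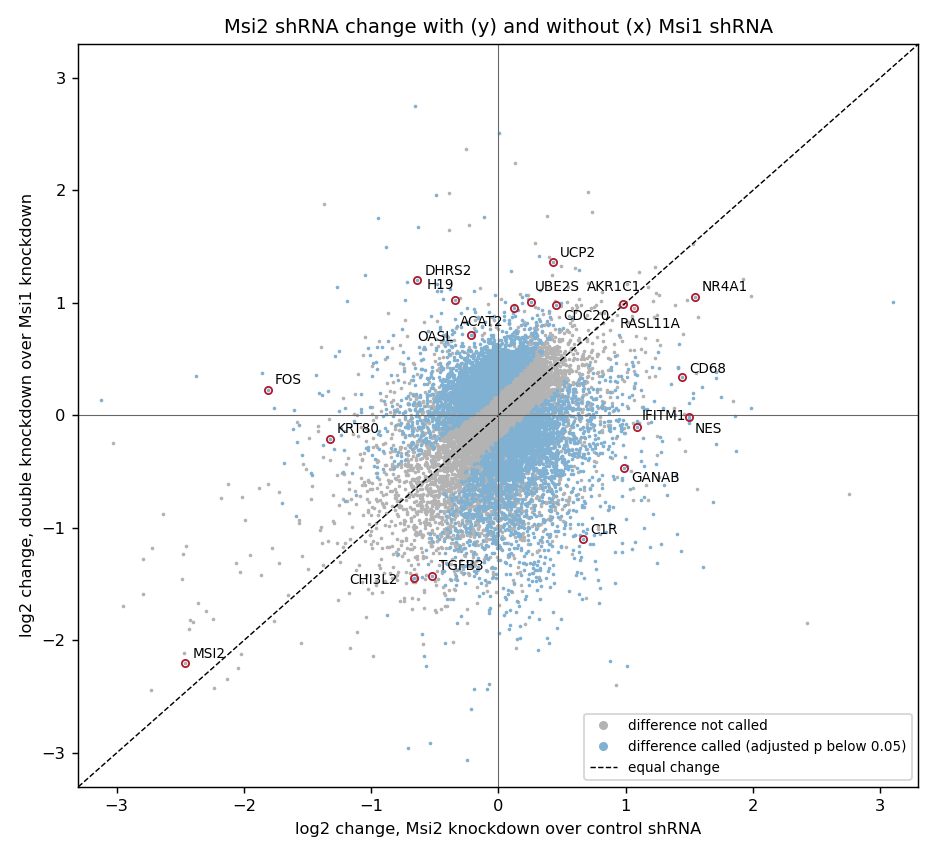
Log2 change with the Msi1 shRNA present (y axis, double knockdown over Msi1 knockdown) against that without it (x axis, Msi2 knockdown over control shRNA). Each point is a tested gene, with 10 genes outside the plotted range. Blue genes have a called difference and the dashed line marks equal change. AKR1C1 lies near the dashed line, DHRS2 and H19 lie above 0 on the y axis and below 0 on the x axis, and NES and KRT80 lie far out on the x axis and close to 0 on the y axis.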

How the data were processed

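RNA was sequenced from sorted MIA PaCa-2 cells, with libraries made from 200 ng of total RNA, per the labels' protocols. The authors deposited estimated counts for each gene, as unscaled whole numbers. Per the submitters' processing notes, kallisto 0.42.1, CASAVA 1.4 and hg19 were used, in roles not stated there. Strand setting and transcript set are not stated either. Kallisto splits shared reads by a model, so near-identical genes are uncertain.

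Genes were analysed in edgeR 4.0.16 (R 4.3.3) on the counts as deposited. Steps were a low-count filter (filterByExpr by group, minimum count 10), TMM scaling, and 1 model of all 12 libraries with 4 group means, leaving 8 degrees of freedom for the spread. A robust quasi-likelihood test, two-sided, followed, with Benjamini-Hochberg adjustment over all 15021 genes at 0.05. Each standard error is the size of the log2 change over the root of F. CPM is per 1e+06 of the TMM-scaled total. The difference with and without the Msi1 shRNA is an interaction contrast in the same model. The library trend is the first component of deviations from group means over 9818 genes above 3 log2 CPM (2 counts added). Scores are projections on it of each library's deviation from the mean of all 12 libraries, so they include group differences along it. The trend-adjusted fit can therefore take out a group difference along this component as well. Transcript lengths are those of the longest GENCODE transcript, for 99.3% of tested genes. The fit was tested on simulated double over Msi1 knockdown data, 14854 genes with 50 changed per size. It called 50% of 1.25-fold, 96% of 1.5-fold and 100% of 2-fold changes, with 12 false calls. The rate of false calls in the real libraries, which differ along the library trend, was not tested.

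Named genes were MSI1 and MSI2, the 12 largest rises and falls (adjusted p below 0.05, at least 10 CPM in the higher group, no overlap of libraries), up to 3 called members with the smallest p per list, and up to 5 genes in each direction for the difference. Exceptions are marked, and some genes that the rule names are not reported here. The 42 gene lists held 1200 entries, of which 98.9% matched the table. The members and lists were chosen with earlier results of these data known. Alternatives were RLE size factors, no filter, a minimum count of 100, only the compared groups, a replicate block, libraries thinned to the smallest total, the trend as a covariate, a length correction, DESeq2 1.42.0 and leaving out each library. Totals ran from 10.9 to 56.1 (in units of 1e+06 counts) over the 12 libraries.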

Additional observations from a re-analysis of the deposited data

Results flagged for a closer look

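The genes below were singled out by a test of the difference between the 2 comparisons in edgeR. It set the change with the Msi1 shRNA (double knockdown over Msi1 knockdown) against that without it (Msi2 knockdown over control shRNA). Passing was the condition of their choice, and the largest adjusted p among them was 0.0341, for NR4A1. Since 40.3% of all genes tested passed it, a pass of this test is common in these libraries. In the trend-adjusted fit the difference was called for 1.22% of genes more positive and 2.72% more negative. The differences below are from the fit without the trend. Values are differences of log2 changes, positive where the change was more positive with the Msi1 shRNA.

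Among the largest rises the difference was 0.93 for UCP2, 1.84 for DHRS2, 1.10 for PDXP and 1.36 for H19. It was 0.75 for UBE2S, 0.50 for AVPI1, 0.52 for CDC20, 0.83 for ACAT2 and 0.59 for MT1E. Among other mitosis and replication genes it was 0.33 for KIF2C, 0.59 for AURKA, 0.48 for PLK1, 0.55 for CDK1, 0.31 for RRM2 and 0.41 for CDT1. In lipid synthesis it was 0.74 for FDFT1, 0.71 for HMGCS1 and 0.60 for ACLY. In protein production it was 0.92 for RPL14, 0.56 for RPL3, 0.36 for NOLC1, 0.66 for EIF5A and 1.14 for EIF4EBP2. Chaperone, proteasome and respiratory chain genes had 0.64 for HSPB1, 0.34 for HSP90AB1, 0.61 for PSMA7, 0.44 for SDHB and 0.63 for UQCRFS1. The interferon-stimulated genes had 0.37 for HERC5 and 0.93 for OASL, while IFITM1 was at -1.19. Further positive differences were 1.12 for KRT80, 2.04 for FOS, 0.38 for NDRG1, 0.51 for KRT19 and 0.59 for ATP6V1E1.

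Negative differences among the largest falls were -1.82 for PFN1P2, -1.75 for CCDC144A, -0.78 for CHI3L2, -1.43 for C1RL-AS1, -0.83 for SEC31B and -0.90 for TGFB3. They were also -1.39 for RBP5, -0.96 for LOC100289279, -0.94 for SLC44A5, -1.06 for GOLGA8N and -1.08 for PABPC1L. Genes of antigen presentation and the endoplasmic reticulum had -0.78 for ERAP2, -0.65 for ERAP1, -0.50 for SEL1L, -0.67 for SYVN1 and -1.45 for GANAB. Surface, matrix and protease genes had -0.61 for ITGB8, -0.94 for ITGA3, -0.60 for TIMP1, -1.29 for PLAT and -1.10 for COL3A1. Lysosomal and axon guidance genes had -0.62 for TPP1, -0.77 for ATP6V0A1, -0.45 for PLXNB2 and -0.60 for SEMA3B. The remaining negative differences were -0.60 for VEGFA, -0.50 for SREBF1, -0.92 for SLC7A11, -0.49 for NR4A1 and -0.79 for TNFAIP3, and -1.51 for NES, -1.76 for C1R and -1.10 for CD68. For CD68 the change was 0.34 with the Msi1 shRNA and 1.45 without it, both called.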

How the results depend on the processing

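The counts of genes higher and lower stayed within 1.5 times of 4486 and 3933 under RLE size factors, no filter, a minimum count of 100, only the compared groups, thinned libraries, a length correction and DESeq2. With the library trend as a covariate 400 genes were higher and 318 lower, 24 and 26 by at least 2-fold, and the change was more positive with the Msi1 shRNA for 183 and more negative for 409. Without Msi1 knockdown replicates 2 and 3, chosen after seeing the data, these counts were 1182, 1336, 30, 185, 686 and 1028. A minimum count of 100 left 6 genes at least 2-fold higher and 183 at least 2-fold lower, with fewer genes tested, and thinning left 366 at least 2-fold lower. Leaving out 1 library gave 3242 to 4693 higher, 3173 to 4183 lower, 48 to 93 at least 2-fold higher (most without Msi1 knockdown replicate 1) and 470 to 860 at least 2-fold lower, and 2138 to 3748 and 2194 to 3342 for the difference. The cause of the move with the trend was not tested, since trend and group move together here. MSI1 turned to 0.068 without Msi1 knockdown replicates 2 and 3.

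Of 82 other named genes 79 were called. With the trend as a covariate 51 of these kept direction and call, 30 of them at a log2 change more than 1.5 times smaller, and 28 lost the call. CCDC144A turned to 0.014, SYVN1 to 0.001, COL3A1 to 0.045, KRT19 to -0.186 and NES, never called, to 0.128. NES also turned to 0.059 with the length correction, 0.009 without double knockdown replicate 2, 0.001 without Msi1 knockdown replicate 2 and 0.053 without replicates 2 and 3, and ran from -0.051 to 0.009 with 1 library left out. Without those replicates 71 kept their call. Calls were kept by 79 with no filter, only the compared groups and the replicate block, and by 78 under RLE size factors and DESeq2. Leaving out 1 library also moved small counts of members lower: cholesterol synthesis to 1 (double knockdown replicate 1 or 2, Msi1 knockdown replicate 2 or 3), immediate early genes to 1 (double knockdown replicate 1, Msi1 knockdown replicate 1 or 3), NRF2 genes to 1 (double knockdown replicate 2 or 3, Msi1 knockdown replicate 1 or 2), hypoxia genes to 3 (Msi1 knockdown replicate 1) and ATF4 genes to 6 (Msi1 knockdown replicate 3).

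In deviations from group means, same-numbered double and Msi1 knockdown libraries correlated at 0.359, -0.104 and 0.485. Differently numbered libraries of these groups ran from -0.522 to 0.359. Same-numbered Msi2 knockdown and control libraries correlated at 0.184, 0.683 and 0.412. So few correlations cannot decide whether a number marks a shared batch, and the labels do not say. With the replicate block 4647 genes were higher and 4080 lower, 62 and 628 by at least 2-fold, and the difference was called for 3453 and 3093.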
